A study of Homo sapiens with 6 samples.

Results

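NCI-N87 cells, an established line of gastric carcinoma, were examined for the transcripts of 87 protein-coding genes of the epithelial cell-cell junctions, out of 58735 genes in the deposited expression table. The members were chosen by gene symbol, with earlier results of these data known, and comprise 24 claudins, 5 genes of the occludin, F11R and TJP group, 23 cadherins of the CDH series, 3 catenins, 7 desmosomal cadherins, the 4 plakophilins with desmoplakin, and 20 connexins. The study compared stable cell populations made by lentiviral infection for 24 h and selection in puromycin at 2 μg/ml. The control libraries (shNC) carry the negative control vector, which the study describes as the empty vector, and the knockdown libraries (shScamp1) carry a short hairpin RNA against SCAMP1, a membrane protein of secretory and recycling vesicles. Each group has 3 libraries of total RNA, labelled as biological replicates and harvested at about 80% confluence, and all cells share the parental line, the lentiviral vector and the drug selection. The knockdown rests on a single hairpin, and it is not stated whether the replicates came from separate infections, so the tests below measure the spread between these libraries.

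Epithelial cells are joined by 4 kinds of contact whose proteins are listed here by their role. Claudins and occludin form the tight junction strands that seal the space between cells, F11R (JAM-A) is an adhesion receptor of the same contact, and the TJP scaffolds (ZO proteins) link the strands to actin. Classical cadherins such as CDH1 (E-cadherin) form the adherens junction, where CTNND1 (p120-catenin) holds the cadherin at the membrane and CTNNA1 (α-catenin) links it to actin. In desmosomes the cadherins DSG and DSC are anchored to keratin filaments through JUP (plakoglobin), the plakophilins and DSP (desmoplakin), and connexins form the channels of gap junctions.

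SCAMP1 itself was at 12.6, 12.1 and 11.5 FPKM (fragments per unit of gene length and of library size, as the authors deposited them) in the shNC libraries and at 1.70, 1.37 and 1.99 FPKM in the shScamp1 libraries, so the labels and the targeted gene match. Reads on genes, recovered from the deposited values, numbered 14311769 to 15988700 per library. How far depth or the spread between libraries limits small differences in the members' levels was not tested, and low read numbers are given for some members. The library labelled shScamp1 replicate 2 stood apart, with 9.21% of its reads on mitochondrial genes against 6.09% to 6.78% in the other libraries, and the calls on the members are therefore also given without it. Of the 10 epithelial and gastric carcinoma markers, 9 were at 0.5 FPKM or more and CDX1 had no read. Their summed level was 5558 to 5843 FPKM in shNC and 9277 to 10179 FPKM in shScamp1 libraries. Such a sum follows its most abundant genes, the highest being KRT8 at a mean of 2268 FPKM, and does not describe each marker. The list includes the members CDH1 and CLDN4, both called higher below. It also includes EPCAM, which was not called (means of 152.8 FPKM in shNC and 147.8 FPKM in shScamp1). Of 20 markers of fibroblasts, endothelial cells and leukocytes, COL1A1 alone reached 0.5 FPKM, at 0.643 FPKM, and COL1A2, DCN, LUM and PDGFRA had no read. Their summed levels overlapped between the groups for fibroblast markers (0.554 to 0.6999 FPKM in shNC and 0.561 to 0.773 FPKM in shScamp1) and for leukocyte markers (0.389 to 0.711 and 0.403 to 0.692 FPKM). The summed endothelial markers were at 0.324 to 0.561 FPKM in shNC and 0.586 to 0.832 FPKM in shScamp1 libraries. Every marker of these 3 other cell types but COL1A1 was below 0.5 FPKM, and the part of the marker sums in the results below was not tested. In RNA from whole cultures, a change in the level per cell and a change in the share of cells that express a gene cannot be told apart.

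The junction genes of NCI-N87 cells ranged from genes without a read to JUP, far above all others. In all, 35 members averaged 0.5 FPKM or more across all 6 libraries and were tested, 19 of them were at 10 FPKM or more and 9 at 50 FPKM or more. The other 52 stayed below the filter, with means up to 0.377 FPKM, and 13 of these had no read in any library. With 3 reads over all 6 libraries as the limit of a count of 0, the latter could be at up to 0.0440 FPKM on average. JUP, shared by adherens junctions and desmosomes, was the most abundant member by far, and CLDN4, CTNNA1, PKP3, CDH1, CTNND1, GJB2 and CLDN7 were also above 50 FPKM. CDH2 (N-cadherin), the cadherin of neural and mesenchymal cells, was covered by 0 to 2 reads per library. GJA1 (connexin 43), the most widespread connexin in other tissues, was covered by 0 to 12 reads. CLDN18, the claudin of normal gastric mucosa, had 3 reads in all 6 libraries and CDH17 (LI-cadherin), of intestinal epithelium, had 5 to 16 reads per library. CLDN18 and CDH17 were picked out after their values were seen. The expressed set included E-cadherin and P-cadherin (CDH3), CLDN4 and CLDN7, DSG2 and DSG3, and the connexin GJB2 (connexin 26).

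**Figure D1:**
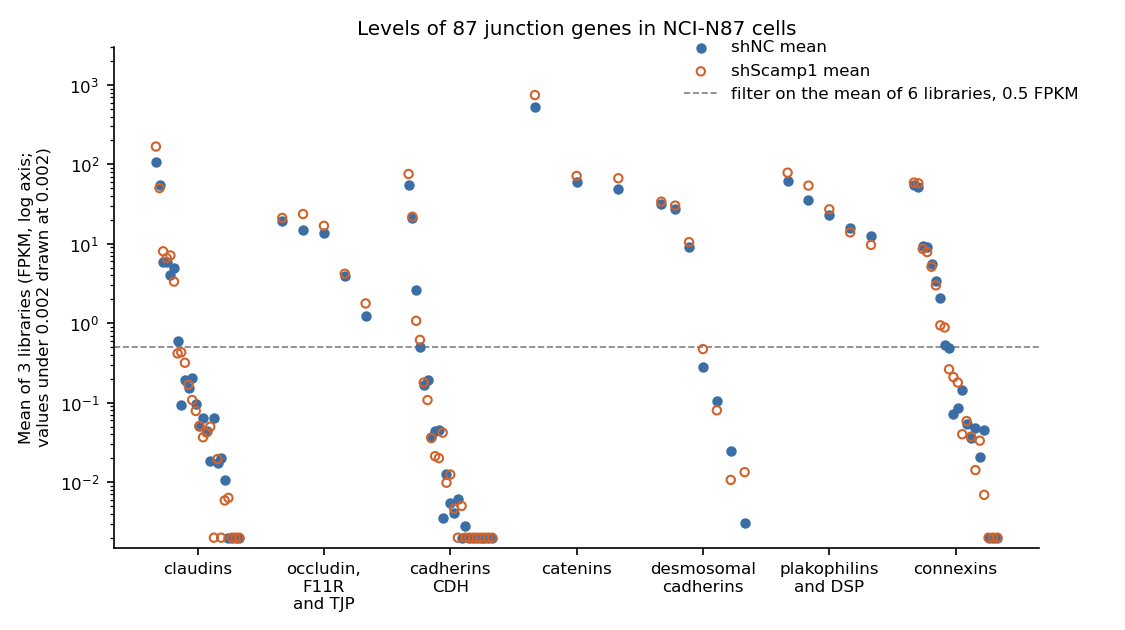
Mean FPKM of each of the 87 junction genes in the shNC (filled) and shScamp1 (open) libraries, by role, on a log axis, each point the mean of 3 libraries, with the filter on the mean of all 6 libraries drawn at 0.5 FPKM. Genes without a read are drawn at the bottom edge. Claudins, cadherins and connexins spread from there to above 50 FPKM, and all 3 catenins and all 5 genes of the plakophilin and DSP group lie above the filter.

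Most of the differences between shScamp1 and shNC libraries were increases of less than 2-fold. Differences were assessed by limma, on log2(FPKM + 0.1) of 15556 genes, and a gene was called higher or lower at a Benjamini-Hochberg adjusted p under 0.05. Of the 35 tested members, 9 (25.7%) were higher in shScamp1 cells, where 8.82% of all tested genes were, and 2 (5.71%) were lower, where 5.17% of all were. Among genes at 10 FPKM or more, 7 of 19 members and 12.4% of all genes were higher. With limma, 0 members were higher by more than 2-fold (log2 fold change above 1), also at an unadjusted p under 0.05 and with voom, as 2.42% of all genes were, and the 2 lower members both fell by more than 2-fold, as 0.746% of all did. The other 24 tested members were not called. The median log2 fold change of the tested members was 0.15, with 24 above 0 and 11 below, against a median of -0.022 over all tested genes. The FPKM of the groups did not overlap for 19 of the 35 members (54.3%), and for 41.4% of all tested genes.

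**Figure D2:**
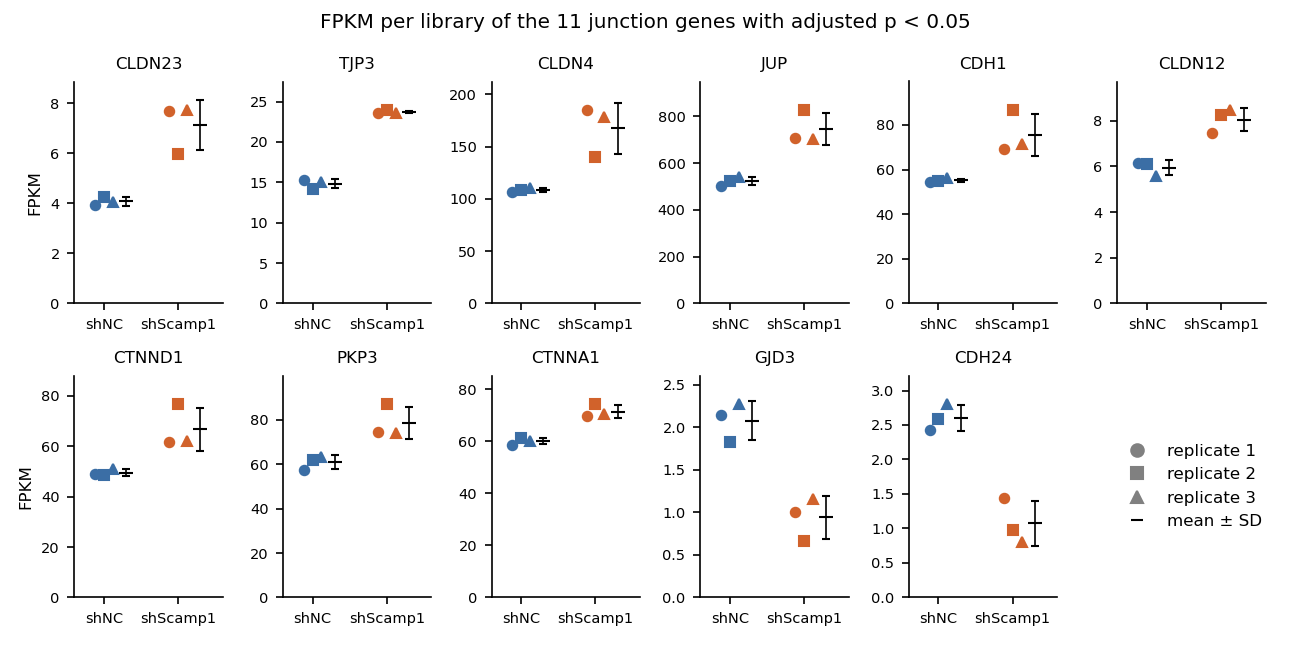
FPKM in each of the 6 libraries for the 11 junction genes with an adjusted p under 0.05, with the mean and SD of each group (n = 3) and the replicate number as the symbol. In all 11 panels the 3 shNC points are separate from the 3 shScamp1 points. The highest point is shScamp1 replicate 2 for JUP, CDH1, CTNND1, CTNNA1, PKP3 and, by a small margin, TJP3. It is the lowest shScamp1 point for CLDN4, CLDN23 and GJD3.

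Among the claudins, CLDN4, CLDN12 and CLDN23 were higher in shScamp1 cells, and the other 4 of the 7 tested were not called. CLDN4, a barrier-forming claudin of simple epithelia on chromosome 7 from 73799542 to 73832693, was at 106.2, 108.1 and 110.4 FPKM in the shNC libraries and 184.6, 139.8 and 178.3 FPKM in the shScamp1 libraries. The lowest shScamp1 value, in replicate 2, was still above every shNC value. The mean rose from 108.2 ± 2.09 FPKM in shNC to 167.5 ± 24.2 FPKM in shScamp1 (SD, n = 3 each), by 54.8%, or 0.62 ± 0.12 (SE) on the log2 scale at a limma adjusted p of 0.0192. CLDN23, a claudin gene on chromosome 8 from 8701938 to 8704106, was at 3.93, 4.26 and 4.06 FPKM in shNC and 7.70, 5.99 and 7.72 FPKM in shScamp1 libraries. It had the largest increase of the tested members, with 0.78 ± 0.12 (SE) on the log2 scale at a limma adjusted p of 0.00883, and was called in all 6 fits that each left out 1 library. CLDN12, an unusual claudin that lacks the terminal motif by which other claudins bind TJP scaffolds, rose from 5.93 ± 0.325 FPKM in shNC to 8.05 ± 0.524 FPKM in shScamp1 (SD, n = 3 each), or 0.43 on the log2 scale (adjusted p = 0.0192). Its exons share 347 bases with GTPBP10 on the same strand, and reads there are of uncertain origin.

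CLDN7 was the most abundant of the claudins without a call. It was at 54.9, 57.4 and 53.4 FPKM in shNC and 60.4, 37.3 and 53.0 FPKM in shScamp1 libraries, which overlap, and its log2 fold change was -0.16 (95% interval -0.59 to 0.26). Without shScamp1 replicate 2, the lowest library, its log2 fold change was 0.036 and so of the other sign. CLDN3, whose gene neighbours that of CLDN4, had a log2 fold change of 0.11 (95% interval -0.34 to 0.57) with 85 to 153 reads per library. CLDN15, a pore-forming claudin of the intestine, was at 5.00 ± 0.425 FPKM in shNC and 3.34 ± 0.889 FPKM in shScamp1 cells (SD, n = 3 each), with every shScamp1 library below every shNC library and an adjusted p of 0.107 by limma. CLDN20 had just 2 to 16 reads in a library. CLDN1, a claudin of stratified epithelia that failed the filter and was picked out after its values were seen, had 1 to 29 reads per library, 0.0689, 0.0164 and 0.194 FPKM in shNC and 0.393, 0.359 and 0.541 FPKM in shScamp1 libraries. With no filter it was not called (adjusted p = 0.121 by limma). With genes admitted by a mean of at least 10 reads, its log2 fold change was 1.55 (adjusted p = 0.0242 by limma). It had 4, 1 and 11 reads in shNC and 21, 18 and 29 in shScamp1 libraries. It thus passed that filter only through the group where it was high, so this call is no test of the difference.

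The shares of the claudin transcripts differed between the groups. Summed over all 24 claudins, the level was 183.7, 188.3 and 186.4 FPKM in the shNC libraries and 273.3, 201.1 and 259.7 FPKM in the shScamp1 libraries. CLDN4 made up 57.4% to 59.2% of this sum in shNC libraries and 67.5% to 69.5% in shScamp1 libraries. CLDN7 made up 28.7% to 30.5% and 18.5% to 22.1%, and CLDN15 made up 2.40% to 2.86% and 1.16% to 1.52%. As shares of 1 sum, these fall where CLDN4 rises, and neither CLDN7 nor CLDN15 was called with all 6 libraries. The library shScamp1 replicate 2 had the lowest summed claudin level of its group and also the highest share of CLDN4. The ratio of CLDN4 to CLDN7 was 1.96 ± 0.0937 in shNC and 3.39 ± 0.347 in shScamp1 libraries (SD, n = 3 each), with no overlap. This ratio contains the called CLDN4 increase and is no separate result.

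**Figure D3:**
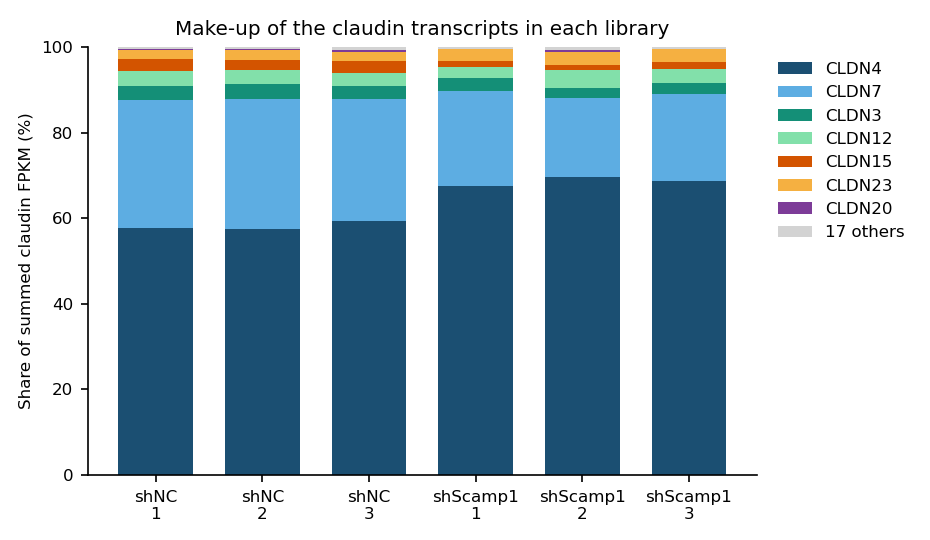
Share of each tested claudin, and of the 17 untested ones together, in the summed claudin FPKM of each library, as stacked bars that add up to 100%. The CLDN4 segment is larger and the CLDN7 segment smaller in each of the 3 shScamp1 libraries than in each of the 3 shNC libraries. The FPKM of CLDN7 itself overlapped between the groups.

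Of the other tight junction genes, the scaffold TJP3 (ZO-3) was higher in shScamp1 cells, with the smallest p of the members, and TJP1, OCLN and F11R were not called. TJP3, on chromosome 19 from 3708109 to 3750813, was at 15.3, 14.2 and 15.1 FPKM in shNC and 23.6, 23.9 and 23.6 FPKM in shScamp1 libraries, and the 3 shScamp1 libraries, replicate 2 included, were close to each other. The mean rose from 14.8 ± 0.607 FPKM in shNC to 23.7 ± 0.171 FPKM in shScamp1 (SD, n = 3 each), or 0.67 ± 0.061 (SE) on the log2 scale at a limma adjusted p of 0.00161, and the gene was called in all 6 fits that each left out 1 library. TJP1 (ZO-1), the best known scaffold of the family, was at 14.0, 14.2 and 13.2 FPKM in shNC and 14.1, 19.5 and 16.9 FPKM in shScamp1 libraries, and these ranges overlap (log2 fold change 0.27, 95% interval -0.023 to 0.56). The ratio of TJP3 to TJP1 was 1.07 ± 0.0719 in shNC and 1.43 ± 0.223 in shScamp1 libraries (SD, n = 3 each). OCLN (occludin) had a log2 fold change of 0.099 (95% interval -0.10 to 0.30). F11R was the most abundant of the group by the mean of all 6 libraries, although TJP3 was above it in each shScamp1 library. F11R was at 19.9, 19.1 and 19.6 FPKM in shNC and 22.4, 20.53 and 20.6 FPKM in shScamp1 libraries, which did not overlap, with a log2 fold change of 0.12 (95% interval -0.041 to 0.27). Its exons share 36.6% of their bases with another gene on the same strand, AL591806.3, so its level is uncertain.

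The start regions of CLDN4 and TJP3 are shown because both genes were called higher at the tight junction, and the values per gene do not tell which start was used. They are the 250 bases before the annotated starts in RefSeq on GRCh38.p14, from chr7:73830746-73830995 (forward strand) for CLDN4 and from chr19:3708134-3708383 (forward strand) and chr19:3721487-3721736 (forward strand) for the 2 starts of TJP3. Capitals mark the E-box CACCTG or its reverse complement CAGGTG, a site that repressors of the Snail and ZEB families can bind.
CLDN4: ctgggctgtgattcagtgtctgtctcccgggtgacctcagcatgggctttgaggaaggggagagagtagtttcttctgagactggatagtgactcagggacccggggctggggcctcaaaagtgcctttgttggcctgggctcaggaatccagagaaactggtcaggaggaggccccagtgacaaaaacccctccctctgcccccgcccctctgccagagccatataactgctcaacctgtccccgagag
TJP3, upstream start: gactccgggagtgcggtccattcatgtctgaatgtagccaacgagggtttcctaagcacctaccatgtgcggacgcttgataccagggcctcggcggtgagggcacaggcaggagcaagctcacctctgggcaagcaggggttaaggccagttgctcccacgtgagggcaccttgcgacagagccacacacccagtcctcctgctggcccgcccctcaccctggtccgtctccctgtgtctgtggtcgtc
TJP3, downstream start: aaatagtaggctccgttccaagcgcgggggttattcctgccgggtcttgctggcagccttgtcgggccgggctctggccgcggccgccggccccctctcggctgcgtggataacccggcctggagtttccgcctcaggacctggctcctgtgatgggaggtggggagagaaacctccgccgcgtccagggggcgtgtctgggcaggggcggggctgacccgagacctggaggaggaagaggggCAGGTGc
These letters occurred once before the downstream start of TJP3 and in neither of the other windows. Of all 35116 windows in the RefSeq table, 17.5% hold at least 1 such E-box on either strand. So do 2 of the 10 windows of called members and 10 of the 34 windows (29.4%) of all tested members. Only 5 of the 11 called members had a window. The starts of CDH1, CDH24, CTNND1, PKP3, CLDN23 and GJD3 had none and were not searched.

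In the adherens junction, CDH1 and the 3 catenins were higher in shScamp1 cells, and the minor cadherin CDH24 was lower. CDH1, on chromosome 16 from 68737225 to 68835548, was at 54.5, 54.9 and 56.0 FPKM in the shNC libraries and 69.3, 86.5 and 71.3 FPKM in the shScamp1 libraries. All shScamp1 values exceeded all shNC values, and replicate 2 was the highest. The mean rose from 55.1 ± 0.813 FPKM in shNC to 75.7 ± 9.41 FPKM in shScamp1 (SD, n = 3 each), by 37.3%, or 0.45 ± 0.098 (SE) on the log2 scale at a limma adjusted p of 0.0311. Without shScamp1 replicate 2 the log2 fold change was 0.35 (adjusted p = 0.00151). CDH3 (P-cadherin), which lies 14609 bases from CDH1, was at 20.9, 20.8 and 22.1 FPKM in shNC and 22.2, 21.0 and 22.5 FPKM in shScamp1 libraries, which overlap. Its log2 fold change of 0.043 had a 95% interval of -0.11 to 0.19. The ratio of CDH1 to CDH3 was 2.59 ± 0.0490 in shNC and 3.47 ± 0.564 in shScamp1 libraries (SD, n = 3 each), with no overlap.

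CDH24, a cadherin known to bind the same catenins and located on chromosome 14 from 23047062 to 23057538, was at 2.42, 2.59 and 2.80 FPKM in shNC and 1.44, 0.974 and 0.802 FPKM in shScamp1 libraries. This was the largest decrease of the tested members, with 44 to 162 reads per library and a mean that fell by 58.8%, or -1.24 ± 0.21 (SE) on the log2 scale at a limma adjusted p of 0.0138. CDH26 was at 0.498 ± 0.129 and 0.618 ± 0.0963 FPKM (SD, n = 3 each), from 34 to 58 reads per library, and was not called. The remaining 19 cadherins were below the filter, and 7 of them had no read.

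The catenins CTNND1 and CTNNA1 rose in shScamp1 cells. CTNND1 was at 48.9, 48.7 and 51.1 FPKM in shNC and 61.8, 76.6 and 62.0 FPKM in shScamp1 libraries, again highest in replicate 2, with 0.42 ± 0.10 (SE) on the log2 scale at a limma adjusted p of 0.0399. CTNNA1 was at 58.7, 61.1 and 60.2 FPKM in shNC and 69.8, 74.1 and 70.3 FPKM in shScamp1 libraries, a smaller change of 0.25 ± 0.061 (SE) on the log2 scale at a limma adjusted p of 0.0436. The ratio of CTNND1 to CDH1 was 0.886 to 0.912 in shNC and 0.869 to 0.892 in shScamp1 libraries. The ranges of this ratio overlap, and a ratio shows only whether both transcripts moved by the same factor.

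JUP was higher in shScamp1 cells and carried most of the catenin transcripts. It was at 504.0, 524.7 and 540.6 FPKM in shNC and 707.9, 825.3 and 702.3 FPKM in shScamp1 libraries, with no overlap and with replicate 2 the highest. Its mean rose from 523.1 ± 18.3 FPKM in shNC to 745.2 ± 69.5 FPKM in shScamp1 (SD, n = 3 each), an increase of 42.4% and 0.51 ± 0.098 (SE) on the log2 scale at a limma adjusted p of 0.0207. JUP lies on chromosome 17 from 41754604 to 41786931 and made up 82.4% to 82.9% of the summed catenin FPKM in shNC and 84.2% to 84.6% in shScamp1 libraries. As for TJP3, RefSeq gives 2 starts, and the 250 bases before each are shown because JUP is the most abundant member and carries E-boxes before 1 of them, with the E-box letters in capitals. They lie at chr17:41786712-41786961 (reverse strand) and chr17:41785977-41786226 (reverse strand) of GRCh38.p14.
JUP, upstream start: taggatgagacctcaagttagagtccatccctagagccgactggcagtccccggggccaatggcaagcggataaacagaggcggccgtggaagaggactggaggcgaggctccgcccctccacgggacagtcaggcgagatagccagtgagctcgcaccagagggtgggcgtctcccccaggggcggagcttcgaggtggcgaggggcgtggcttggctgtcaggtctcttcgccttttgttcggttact
JUP, downstream start: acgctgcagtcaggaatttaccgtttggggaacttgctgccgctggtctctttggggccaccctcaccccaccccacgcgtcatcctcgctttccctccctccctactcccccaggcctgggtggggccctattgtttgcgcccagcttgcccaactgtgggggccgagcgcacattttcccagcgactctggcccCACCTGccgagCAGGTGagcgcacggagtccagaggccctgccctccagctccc
The downstream window holds CACCTG at -54 and CAGGTG at -43, counted in bases from the start, and the upstream window holds neither. A match of these letters is a description and not a binding site.

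In the desmosome, PKP3 was higher in shScamp1 cells, and DSP, the other plakophilins and the desmosomal cadherins were not called. PKP3 (plakophilin 3), the most abundant plaque gene after JUP, was at 57.6, 62.0 and 63.5 FPKM in shNC and 74.7, 86.96 and 74.2 FPKM in shScamp1 libraries. Its change was 0.36 ± 0.088 (SE) on the log2 scale at a limma adjusted p of 0.0430, the second smallest increase among the called members after CTNNA1. DSP was at 36.9, 35.1 and 36.2 FPKM in shNC and 38.2, 78.8 and 45.1 FPKM in shScamp1 libraries. Every shScamp1 value lay above the shNC values, yet replicate 2 lay far above the others, and the log2 fold change of 0.51 had a 95% interval of -0.11 to 1.13 (adjusted p = 0.234) and was 0.20 without that library (adjusted p = 0.102).

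The other plakophilins differed in direction and were not called by limma on the authors' FPKM of all 6 libraries. PKP2, a plakophilin of simple epithelia and heart, was at 23.2 ± 0.721 and 27.2 ± 0.985 FPKM (SD, n = 3 each; log2 fold change 0.22, adjusted p = 0.0641 by limma). PKP1, a plakophilin of stratified epithelia, was at 15.99 ± 0.673 and 13.9 ± 1.54 FPKM (log2 fold change -0.20, adjusted p = 0.199), and PKP4, a relative of CTNND1, at 12.4 ± 0.735 and 9.69 ± 1.29 FPKM (log2 fold change -0.36, adjusted p = 0.0779). With all 6 libraries PKP4 was called lower by voom (adjusted p = 0.0472) and when libraries were scaled by total reads. Without shScamp1 replicate 2, PKP2 was higher (adjusted p = 0.0226 by limma) and PKP1 and PKP4 were lower (adjusted p = 0.00972 and 0.00500). The ratio of PKP3 to PKP1, which cancels the scaling of a library, was 3.66 to 4.001 in shNC and 5.54 to 5.79 in shScamp1 libraries.

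The 3 tested desmosomal cadherins had log2 fold changes from 0.11 to 0.19, and the groups overlapped for each of them. Their unadjusted p by limma was also above 0.05, and voom called none. DSG3, the most abundant of them and a cadherin of stratified epithelia, was at 32.6, 31.6 and 30.1 FPKM in shNC and 31.4, 35.01 and 35.5 FPKM in shScamp1 libraries, which overlap (log2 fold change 0.11, 95% interval -0.071 to 0.29). DSG2, the desmoglein of simple epithelia, had a log2 fold change of 0.15 (95% interval -0.064 to 0.37), and DSC2, its desmocollin counterpart, of 0.19 (95% interval -0.072 to 0.44). These intervals leave room for increases up to a log2 fold change of 0.44 in DSC2. The ratio of DSG3 to DSG2 was 1.12 to 1.18 in shNC and 1.09 to 1.16 in shScamp1 libraries, which overlap.

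Of the 8 tested connexins, the minor GJD3 was lower in shScamp1 cells and the other 7 were not called. GJB2, which forms channels in many epithelia, was at 54.1, 55.2 and 54.9 FPKM in shNC and 63.9, 50.4 and 62.8 FPKM in shScamp1 libraries, with replicate 2 below the shNC values and the others above. Its log2 fold change was 0.10 (95% interval -0.15 to 0.35). GJD3 was at 2.14, 1.83 and 2.27 FPKM in shNC and 1.006, 0.660 and 1.16 FPKM in shScamp1 libraries, -1.09 ± 0.22 (SE) on the log2 scale at a limma adjusted p of 0.0225 from 8 to 31 reads per library. The value of GJD3 is uncertain, since 82.8% of its exonic bases, on chromosome 17 from 40362931 to 40363815, lie opposite exons of AC080112.1 and the counting is not stated to use strand. AC080112.1 was at 4.47 FPKM on average in shNC and 3.49 FPKM in shScamp1 libraries (adjusted p = 0.219). GJB5, GJA3 and GJB6 had log2 fold changes of -0.19, -0.13 and -0.15 and were not called.

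**Figure D4:**
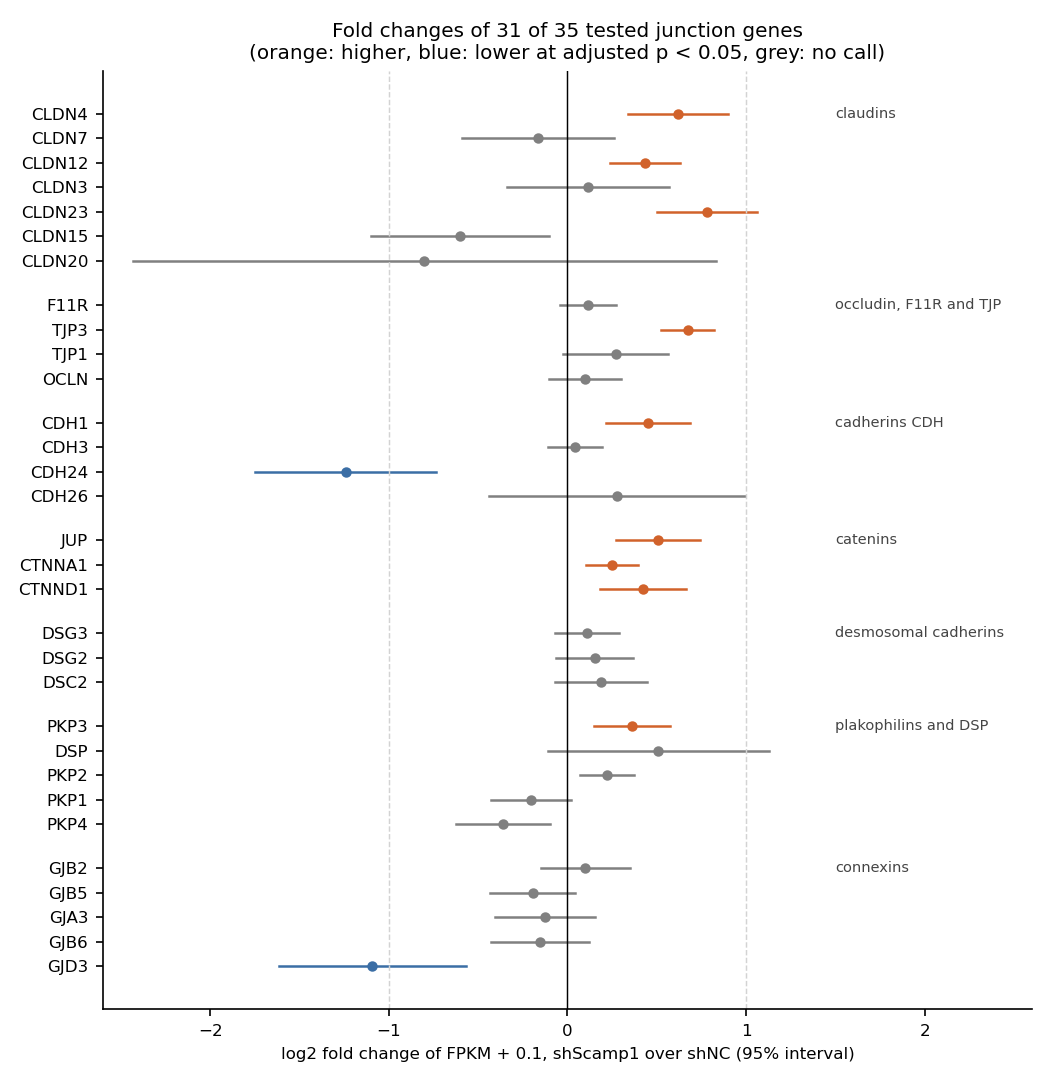
The log2 fold change of FPKM + 0.1 (shScamp1 over shNC) of 31 of the 35 tested junction genes with its 95% interval, by role and within a role by abundance, with dashed lines at -1 and 1. The 9 called increases lie between 0.25 and 0.78, the 2 called decreases are CDH24 and GJD3, and the 3 desmosomal cadherins lie between 0.11 and 0.19.

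Summed by role, the levels of 5 of the 7 groups were higher in each shScamp1 library than in each shNC library, as a description without a test. The ratio of the mean sums was 1.40 for the catenins, 1.31 for the claudins, 1.27 for the occludin, F11R and TJP group, 1.25 for the CDH cadherins and 1.23 for the plakophilins with DSP. Without shScamp1 replicate 2 these ratios were 1.32, 1.43, 1.24, 1.19 and 1.11 in the same order. The sums overlapped for the desmosomal cadherins and the connexins, with ratios of 1.104 and 1.05. Such sums follow the most abundant members, so that of the catenins is mostly JUP and that of the claudins mostly CLDN4.

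A list of junction partners outside the members, written from textbook membership and with the pannexins added, was read from the same fit. Of 61 partners with a row, 45 were tested, of which 12 were higher in shScamp1 cells, beside 8.82% of all genes, and 33 were not called. Without shScamp1 replicate 2, 14 were higher and 3 lower, beside 14.9% and 13.4% of all genes. With all 6 libraries the median log2 fold change was 0.17, and -0.022 over all tested genes. CGN (cingulin), the cytoplasmic linker that binds TJP scaffolds, rose from 14.8 ± 0.666 FPKM in shNC to 30.1 ± 0.977 FPKM in shScamp1 (SD, n = 3 each; log2 fold change 1.02, adjusted p = 0.000601 by limma). LMO7, a protein of adherens junctions that binds afadin, rose from 4.21 ± 0.0925 FPKM in shNC to 11.2 ± 1.19 FPKM in shScamp1 (log2 fold change 1.38, adjusted p = 0.000651). LIMA1 (EPLIN), which links CTNNA1 to actin, had a log2 fold change of 1.00 (adjusted p = 0.00188), and the pannexin PANX2 of 1.79 (adjusted p = 0.000926). These 4 partners were called in all 6 fits that each left out 1 library. CLDND1 (0.65), the desmosomal membrane protein PERP (0.46), PLEKHA7 (0.39) of the adherens junction and ILDR1 (0.46) of tricellular junctions were higher by smaller log2 fold changes. Each of these was called in only 2 of those 6 fits. CTNNB1 (β-catenin), which competes with JUP for cadherin tails, was at 16.4, 15.6 and 16.7 FPKM in shNC and 15.7, 26.4 and 17.1 FPKM in shScamp1 libraries (log2 fold change 0.24, adjusted p = 0.436). It was named after its values were seen, and its difference rests on replicate 2, without which the log2 fold change was 0.014.

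Leaving out single libraries changed how many members were called. Without shScamp1 replicate 2, 12 members were higher and 6 lower of the 34 then tested, while 14.9% of all genes were higher and 13.4% lower. All 11 genes called with 6 libraries were also called then, and the added calls included CLDN15, GJA3, PKP1 and PKP4 (lower) and GJB2 and PKP2 (higher). In each fit that left out 1 shNC library, of the 11 only TJP3 and CLDN23 were still called, and without shScamp1 replicate 3 only these with CDH24 and GJD3. Calls over all genes also fell, from 1372 higher and 805 lower to 651 to 674 higher and 166 to 185 lower without 1 shNC library, and to 715 and 314 without shScamp1 replicate 3. Without shScamp1 replicate 1, CTNNA1, CTNND1 and PKP3 were no longer called. When libraries were scaled by total reads in place of the authors' scaling, 7 members were higher and 3 lower, and the calls over all genes moved to 1138 higher and 1268 lower.

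The departure of shScamp1 replicate 2 from its group moved with the rank of gene length among the junction genes. On the log2 scale, its difference from the mean of replicates 1 and 3 ran from -0.71 for CLDN15 to 0.92 for DSP, and reached 2.15 for CLDN20, with its few reads. Across the 35 tested members this difference and gene length had a Spearman rho of 0.64 and, with log2 length, a Pearson r of 0.25, as a description of genes that share the same libraries, against a rho of 0.22 and an r of -0.0010 over all 15556 tested genes. The tested claudins and connexins are mostly shorter than the other tested members, so gene length and role cannot be told apart here. The part of this departure in the results above was not tested. The log2 fold changes without shScamp1 replicate 2 are plotted against those with all 6 libraries.

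**Figure D5:**
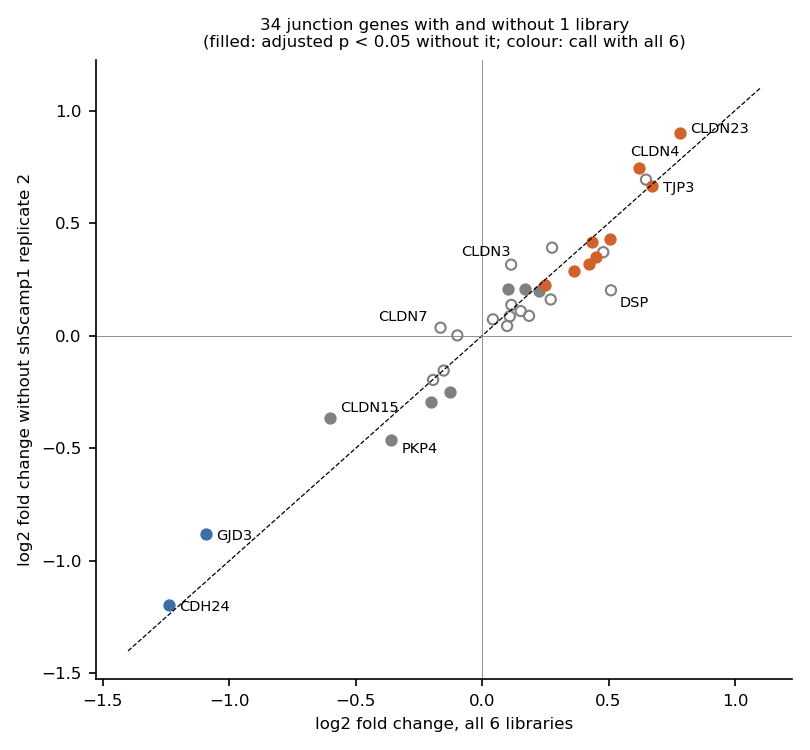
The log2 fold change of the 34 junction genes tested in both fits, with all 6 libraries (horizontal) and without shScamp1 replicate 2 (vertical), coloured by the call with all 6 libraries and filled where the adjusted p was under 0.05 without that library. Most points lie near the dashed line of equal values, CLDN4, CLDN23, CLDN3, CLDN7 and CLDN15 lie above it, and DSP falls from 0.51 to 0.20.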

How the data were processed

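The authors deposited FPKM values for each gene in 6 RNA-seq libraries, beside its length, position and biotype, and the submitters' processing notes name HISAT2 2.0.5, featureCounts 1.5.0-p3, DESeq2 1.20.0 and the build hg38 without giving their roles. The coordinates of all 58735 genes equal those of GENCODE 29. FPKM multiplied by gene length was a whole multiple of 1 step per library for 100% of values above 0, within 0.1 read, which gave the reads on each gene. The product of step and total reads differed between libraries, so the values carry a scaling beyond total reads whose method is not given in the sources used here. Replicates of a group differed by more than sampling noise, and shScamp1 replicate 2 by far the most. The chi-square per degree of freedom of their reads was 1.97 to 2.58 between shNC libraries and 3.1 between shScamp1 replicates 1 and 3. For shScamp1 replicate 2 it was 44.1 against replicate 1 and 34.5 against replicate 3.

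Expression was tested in R 4.3.3 with limma 3.58.1 (lmFit, eBayes with a mean-variance trend) on log2(FPKM + 0.1) for genes that averaged 0.5 FPKM or more across all 6 libraries, with Benjamini-Hochberg adjustment over all genes tested. Fold changes on this scale understate those of low genes. The fit was also run on reads simulated with the same spread for all genes and libraries. That run had no outlying library and so does not cover the departure of shScamp1 replicate 2. Tables were made in Python 3.11.15 with pandas 2.3.3. With 3 libraries against 3, an exact two-sided permutation test cannot give a p below 0.1, so none is quoted per gene. Sums, shares and ratios of FPKM are descriptions without a test.

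The members, the partner list and the rules for naming genes were chosen with earlier results of these data known. Named were members with an adjusted p under 0.05, the most abundant of each role, textbook members of each junction, and the 8 partners with the smallest p. Other members were named after their values were seen, and a few are counted but not reported here by name. Alternatives covered the pseudocount, filter, scaling, trend, biotype, voom on recovered reads, a block for the replicate number, unadjusted p-values and leaving out each library.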

Additional observations from a re-analysis of the deposited data

How the results depend on the processing

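The 9 members called higher and 2 called lower became 4 and 1 with no filter on low values, and 5 higher without the mean-variance trend. With the replicate number as a block, 2 were higher and 1 lower. With voom on the recovered reads, 10 were higher and 3 lower, beside 1619 and 1140 over all genes. Over all genes, 1372 higher and 805 lower became 1100 and 514 with no filter, 1208 and 652 without the trend, and 704 and 254 with the block. Same-numbered libraries of the groups did not deviate together (correlations of -0.035, 0.032 and 0.067), so the number was not treated as a pairing. At an unadjusted p under 0.05 by limma, 13 members were higher and 4 lower. The calls over all genes at that threshold are not given here. A fall of more than 2-fold was called for 2 members, for 1 with no filter or with the block, and for 0 with a pseudocount of 1. With a mean of at least 10 reads as the filter, 1 member, CLDN1, was called higher by more than 2-fold. CLDN1 passed that filter only through its shScamp1 libraries, so this call is no test of the difference. Leaving out 1 library gave 2 to 12 higher members, 0 to 6 lower, and 0 to 2 lower by more than 2-fold. SCAMP1 stayed called in every alternative, TJP3 and CLDN23 in all 18 alternatives, and no member called with all 6 libraries changed direction in them. The causes were not tested. Depth limits GJD3, CLDN20, CDH26 and the members below the filter.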

Other observations

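Many junction genes lie beside a relative, and 2 of the 9 neighbouring pairs with both genes tested differed in their call, while neither gene was called in the other 7. On chromosome 7, CLDN4 was higher in shScamp1 cells, and CLDN3, 29272 bases away, was not called (log2 fold change 0.11). On chromosome 16 the same held for CDH1 and CDH3. The 3 expressed connexins of chromosome 13 (GJA3, GJB2 and GJB6) had log2 fold changes of -0.13, 0.10 and -0.15, and were not called. The desmosomal cadherin cluster of chromosome 18 held both expressed members (DSG3, DSG2 and DSC2) and members at few reads, of which DSC1 and DSC3 had 0 to 3 reads per library. Whether neighbours differ was not tested.

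Among members below the filter, DSG4 and GJB1 came closest to it. DSG4, a desmoglein of hair and hardened epithelia, had 20 to 37 reads per library and was at 0.269, 0.281 and 0.289 FPKM in shNC and 0.364, 0.576 and 0.480 FPKM in shScamp1 libraries. GJB1, a connexin of glandular epithelia, had 7 to 23 reads and was at 0.458, 0.387 and 0.601 and 0.193, 0.265 and 0.331 FPKM. The groups did not overlap for either gene. Neither was called by limma with no filter (adjusted p = 0.341 and 0.318) or with a mean of at least 10 reads as the filter (0.0639 and 0.0683). GJB1 passed the latter filter only through its shNC libraries, with 18, 16 and 23 reads there and 7, 9 and 12 in shScamp1 libraries. Its value under that filter is therefore no test of the difference.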
